A study of Mus musculus with 35 samples.

Results

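The genes described here mark T cells and natural killer cells in mouse lung. They were taken from a list of 38 symbols: 8 parts of the T cell receptor complex and its signalling, 10 coreceptors and costimulatory receptors, and 7 factors and receptors of T cell homing and survival. The other 13 are receptors, granule proteins and regulators of natural killer and cytotoxic T cells. Of these, 36 were measured among the 19938 genes of the arrays, each by 1 probe set, and Lck and Tcf7 were not analysed here.

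T cells recognise antigen through a receptor whose CD3 chains pass the signal to kinases such as Zap70, and the CD4 and CD8 coreceptors bind the presenting molecule beside it. Natural killer cells carry no such receptor and weigh activating against inhibitory surface receptors before they release perforin and granzymes, a store they share with cytotoxic T cells. In the lung both kinds of cell lie in the vascular bed and the tissue and change in number as blood leukocytes enter or leave.

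All lungs came from adult male C57BL/6J mice of 20 to 25 g, and each array held 1 animal. The 5 non-ventilated mice breathed spontaneously in room air. The other mice were ventilated for 3 h. Low stretch meant 135 breaths per min of 10 mL/kg each, with the end-expiratory pressure held at 2.0 cmH2O, in room air (normocapnia, 5 mice) or with an inspired CO2 fraction of 0.12 (hypercapnia, 5 mice). High stretch was a tidal volume of 35 to 40 mL/kg, reaching a peak pressure of 27 cmH2O, without end-expiratory pressure and at 30 to 35 breaths per min. The high-stretch gas held an oxygen fraction of 0.75 and a CO2 fraction of 0 (normocapnia, 10 mice) or 0.12 (hypercapnia, 10 mice). Tidal volume, end-expiratory pressure and rate thus changed together between low and high stretch, and in normocapnia oxygen changed with them. No oxygen fraction is listed for low-stretch hypercapnia, so in its comparisons a part of oxygen cannot be told apart. Mice were anesthetized and, for ventilation, tracheostomized. Lungs were lavaged before they were removed and frozen. The values of the non-ventilated mice are the controls of all 4 ventilated groups, so those comparisons share their control arrays.

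Values are log2 signals, in which a difference of 1 is a 2-fold difference. A gene was called where its limma Benjamini-Hochberg adjusted p, taken over all 19938 genes of a comparison, was under 0.05. The medians of the 35 arrays lay between 6.96 and 7.05. Epithelial markers had a mean level of 11.41 to 11.64 and endothelial markers one of 10.44 to 11.08. Of 16 neutrophil markers, 14 were called higher in each ventilated group, where 6.63%, 7.99%, 17.4% and 16.3% of all genes were. Of 14 B cell markers 13, 14, 12 and 12 were called lower, beside 5.17%, 7.02%, 18.9% and 17.6% of all genes. The order is low-stretch normocapnia and hypercapnia, then high-stretch normocapnia and hypercapnia. The mean level of the B cell list was 7.65 to 8.22 without ventilation, 6.66 to 7.13 and 6.48 to 6.92 at low stretch (normocapnia, hypercapnia), and 7.00 to 7.39 and 6.82 to 7.39 at high stretch. The part of these shifts in the results below was not tested. In each group 1 array led most or many of the 23 measured T cell genes: non-ventilated replicate 1 was the highest of its group in 17, low-stretch normocapnia replicate 5 in 16, low-stretch hypercapnia replicate 4 in 17, high-stretch normocapnia replicate 6 in 11 and high-stretch hypercapnia replicate 8 in 17. High-stretch normocapnia replicate 6 also led 10 of the 13 natural killer and cytotoxic genes. Without the array named for a ventilated group, the members called in that group against non-ventilated lungs numbered 9 in place of 7, 12 in place of 12, 12 in place of 7 and 14 in place of 12, in the same order of groups. Without non-ventilated replicate 1 they numbered 5, 9, 5 and 9. As these arrays were picked for high values of the same genes, the direction of these shifts follows in part from the choice. In whole lung, fewer cells of a type and less RNA per cell cannot be told apart.

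On the deposited values, more T cell and natural killer genes were called lower than higher in each ventilated group. The share called lower lay above that of all genes at low stretch and near it at high stretch. Cd2, an adhesion receptor of T and natural killer cells, and Ncr1, the activating receptor NKp46 of natural killer cells, were called lower in all 4 ventilated groups, as was Ccr7, the receptor that guides naive T cells to lymph nodes. Icos and Ctla4 of activated T cells, the chemokine receptor gene Ccr8, the survival receptor gene Il7r and the transcription factor gene Stat4 were called higher in at least 1 ventilated group. In 9 comparisons, 16 of the 36 genes were called at least once and 20 never. In 1 of these alone, high stretch in normocapnia, 36.3% of all genes were called. The share of all genes called at least once was not counted. Ncr1, Stat4 and Ccr8 were the 3 genes called with CO2, where 0.115% of all genes were called at low stretch and 5.56% at high stretch.

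Against non-ventilated lungs, low stretch in normocapnia gave 0 members higher and 7 lower, where 6.63% of all genes were called higher and 5.17% lower (11.8% in all). At low stretch in hypercapnia 2 were higher and 10 lower, against 7.99% and 7.02% of all genes (15% in all). High stretch in normocapnia gave 2 higher and 5 lower, against 17.4% and 18.9% (36.3%), and high stretch in hypercapnia 5 higher and 7 lower, against 16.3% and 17.6% (33.8%). The share of members called lower lay above that of all genes at low stretch, and in this fit near it at high stretch. With arrays centred on their medians the high-stretch normocapnia split became 2 higher and 2 lower, and that of all genes moved from 3468 higher and 3769 lower to 4217 and 3037. In hypercapnia at high stretch, centring moved the members' split to 5 and 5 and that of all genes from 3240 and 3508 to 3862 and 2796. The median change of the members was -0.19, -0.14, -0.12 and -0.12 in the 4 comparisons, beside -0.01, 0.00, -0.03 and -0.04 over all genes, and it was negative in 31, 29, 27 and 24 members. Without high-stretch normocapnia replicate 6 or 10, the count for high stretch in normocapnia rose from 7 to 12 or 11, and without low-stretch normocapnia replicate 4 that for low stretch in normocapnia fell from 7 to 4.

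**Figure D1:**
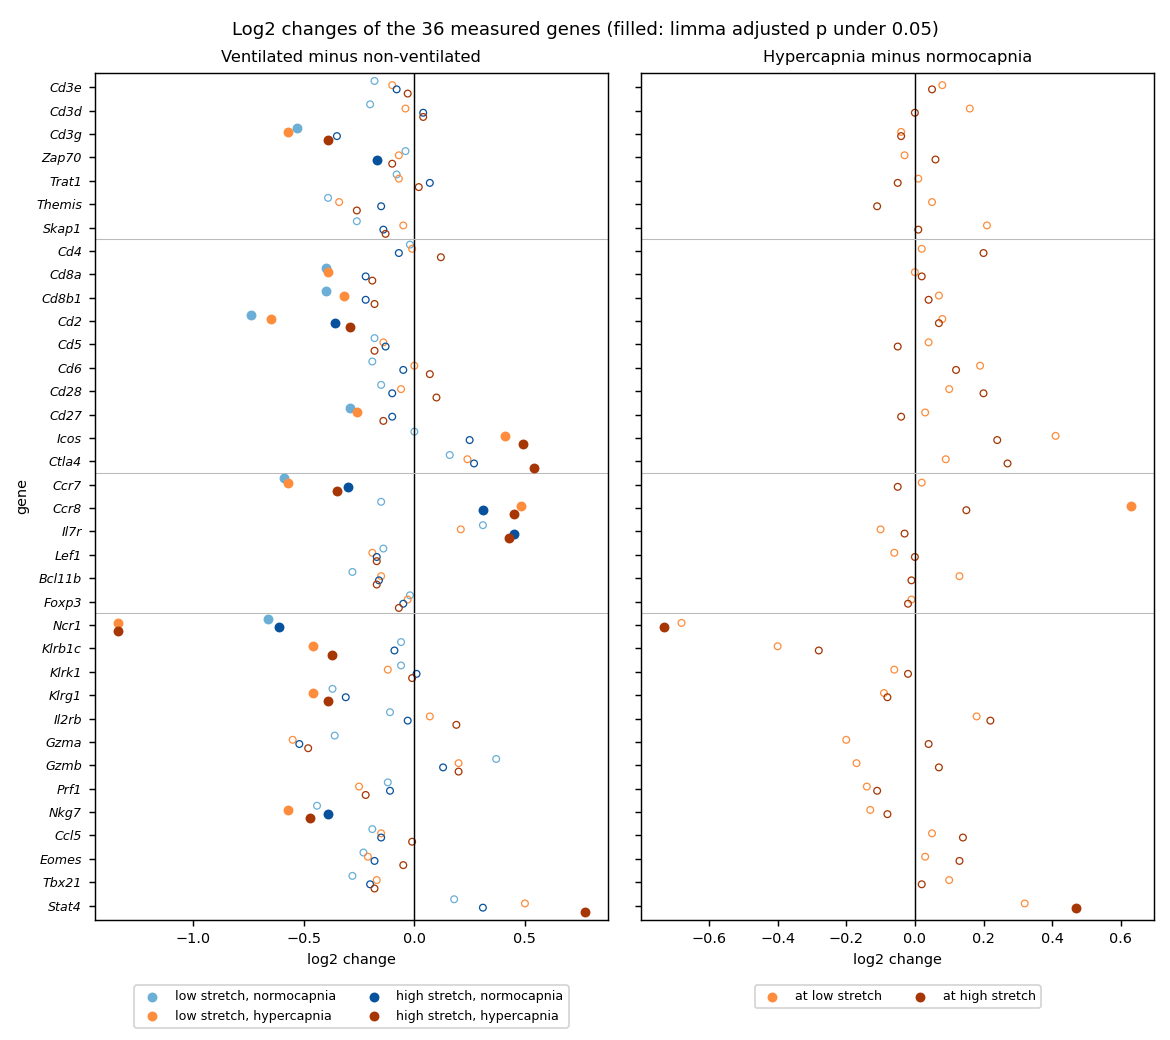
Log2 changes (x axis) of the 36 measured genes (y axis), with the 4 ventilated groups minus the non-ventilated group at left and hypercapnia minus normocapnia at right; filled points passed limma at an adjusted p under 0.05, open points did not, and grey lines part the 4 roles. Ncr1 lies farthest left, at -1.34 in both hypercapnic groups, and Stat4 farthest right, at 0.77 in high-stretch hypercapnia.

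The arrays of compared groups seldom separated fully. Below all non-ventilated arrays lay every array of the group for 5 members at low stretch in normocapnia (Cd2, Cd27, Ncr1, Klrg1 and Nkg7), as for 3.54% of all genes, and 0 members lay above, as 4.65% did. At low stretch in hypercapnia 5 members lay below (Cd2, Ncr1, Klrb1c, Klrg1 and Nkg7) and 1 above (Ccr8), beside 3.95% and 4.96% of all genes. High stretch in normocapnia separated 0 members, beside 7.91% of all genes below and 8.38% above. High stretch in hypercapnia separated 1 below (Ncr1) and 3 above (Icos, Ccr8 and Stat4), beside 5.98% and 7.26%. With CO2 at low stretch 1 member lay above (Ccr8), beside 0.938% of all genes, and 0 below, beside 1.08%. With CO2 at high stretch 0 members separated, beside 0.176% above and 0.261% below, and neither did any between high and low stretch, beside 3.73% and 2.85% in normocapnia and 1.84% and 0.908% in hypercapnia.

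The bases before the start sites of Ncr1, Stat4, Ccr8 and Ctla4 are shown because these were, among the 25 members with an entry in RefSeq's promoter table (GRCm38.p6), those with the smallest adjusted p for ventilation. Each run holds the 250 bases upstream of the first start listed, 5′ to 3′ on the gene's strand, which is the plus strand for all of them. Ncr1 lies at chr7:4337465-4337714, Stat4 at chr1:51986898-51987147, Ccr8 at chr9:120091883-120092132 and Ctla4 at chr1:60908775-60909024. Capitals mark matches, on either strand, to TGTGGT or TGCGGT (RUNX factors), CTTTGA (TCF and LEF factors), GGAAGT (ETS factors), CANNTG (E-box) or AGAACA (one arm of the glucocorticoid receptor site).
Ncr1: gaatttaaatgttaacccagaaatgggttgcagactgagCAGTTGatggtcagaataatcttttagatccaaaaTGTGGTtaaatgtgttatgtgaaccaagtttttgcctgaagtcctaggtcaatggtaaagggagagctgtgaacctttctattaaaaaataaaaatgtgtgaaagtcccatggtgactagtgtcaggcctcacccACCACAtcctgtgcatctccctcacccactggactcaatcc
Stat4: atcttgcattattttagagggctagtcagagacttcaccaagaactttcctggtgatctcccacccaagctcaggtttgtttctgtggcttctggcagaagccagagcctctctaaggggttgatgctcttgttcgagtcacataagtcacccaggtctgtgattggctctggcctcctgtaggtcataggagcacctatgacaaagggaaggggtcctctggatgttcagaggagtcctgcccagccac
Ccr8: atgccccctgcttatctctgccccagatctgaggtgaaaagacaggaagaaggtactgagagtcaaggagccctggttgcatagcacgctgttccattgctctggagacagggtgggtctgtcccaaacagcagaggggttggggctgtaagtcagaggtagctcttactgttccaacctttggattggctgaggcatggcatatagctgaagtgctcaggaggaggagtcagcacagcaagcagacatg
Ctla4: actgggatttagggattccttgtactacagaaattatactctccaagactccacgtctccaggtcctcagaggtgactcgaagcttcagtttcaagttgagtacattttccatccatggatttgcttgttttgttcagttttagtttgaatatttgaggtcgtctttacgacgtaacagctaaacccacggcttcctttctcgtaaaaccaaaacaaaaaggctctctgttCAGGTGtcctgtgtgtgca
The Ncr1 run held RUNX matches at -176 to -171 and, on the other strand, at -41 to -36, counted back from the start site, and an E-box match at -211 to -206. Ctla4 held 1 E-box match, at -19 to -14, and the Stat4 and Ccr8 runs held none of these letters. RUNX letters stood in 18.6% of all 32851 promoters of the table and in 9 of the 25 members: 7 of 10 natural killer and cytotoxic genes (Gzma, Gzmb, Klrb1c, Klrk1, Ncr1, Nkg7 and Prf1) and 2 of 15 T cell genes (Cd5 and Trat1). TCF and LEF letters stood in 13.8% of all promoters and in 4 of the 15 T cell genes (Bcl11b, Cd3d, Trat1 and Zap70), and in 0 of the 10 others. The ETS letters stood in 19.7% of promoters and 8 members, the E-box in 66.2% and 20, and the glucocorticoid receptor letters in 16.1% and 4. Such a match is a description of the letters and no measured site. No entry was used for Skap1, Cd4, Cd8b1, Cd2, Cd6, Cd28, Icos, Ccr7, Klrg1, Il2rb and Ccl5.

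Among the 7 measured genes of the receptor complex, 1 was called lower in each ventilated group, Zap70 at high stretch in normocapnia and Cd3g in the other groups, and 0 were called higher. That is 1 of 7 beside 5.17%, 7.02%, 18.9% and 17.6% of all genes called lower. Cd3g, which encodes the gamma chain of CD3, had signals of 8.56, 7.90, 8.35, 7.80 and 8.41 in the non-ventilated mice. At low stretch they were 7.43, 7.34, 7.58, 7.63 and 8.37 in normocapnia and 7.47, 7.72, 7.27, 8.10 and 7.59 in hypercapnia. High-stretch arrays ran from 7.33 to 8.31 (median 7.87) in normocapnia and 7.61 to 8.01 (median 7.86) in hypercapnia. The non-ventilated arrays split into 3 high and 2 lower ones, and 1 low-stretch normocapnia array lay among the high ones, so every pair of groups overlapped. The Cd3g change was -0.53 (SE 0.17, 1.45-fold lower, adjusted p = 0.0317) at low stretch in normocapnia, -0.57 (SE 0.17, 1.49-fold lower, adjusted p = 0.0163) at low stretch in hypercapnia and -0.39 (SE 0.15, 1.31-fold lower, adjusted p = 0.0341) at high stretch in hypercapnia. At high stretch in normocapnia it missed the threshold, at -0.35 (SE 0.15, adjusted p = 0.0548). For Cd3g at low stretch, the call in normocapnia did not hold when replicate 1, 3 or 5 of the non-ventilated group or 1, 2, 3 or 4 of the low-stretch normocapnia group was left out (adjusted p 0.0588 to 0.111) or with a fit of only the groups compared (adjusted p = 0.139). In hypercapnia the Cd3g call did not hold at low stretch when replicate 1 of the non-ventilated group or 1 or 3 of the low-stretch hypercapnia group was left out (adjusted p 0.0503 to 0.0648) or with a fit of only the groups compared (adjusted p = 0.0705), nor at high stretch when replicate 1, 3 or 5 of the non-ventilated group or 2 or 10 of the high-stretch hypercapnia group was left out (adjusted p 0.0524 to 0.141) or with arrays centred on their medians (adjusted p = 0.0573).

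Zap70 is the kinase recruited to the CD3 chains. Its signals were 6.86, 6.79, 6.80, 6.87 and 6.65 without ventilation, 6.66, 6.70, 6.82, 6.77 and 6.81 at low stretch in normocapnia and 6.82, 6.82, 6.66, 6.68 and 6.63 in hypercapnia. At high stretch they ran from 6.39 to 6.81 (median 6.65) in normocapnia and 6.55 to 6.85 (median 6.71) in hypercapnia. These ranges overlapped throughout. Zap70 changed by -0.17 (SE 0.06, 1.12-fold lower, adjusted p = 0.0229) at high stretch in normocapnia, a call that did not hold when replicate 1 or 4 of the non-ventilated group was left out (adjusted p 0.068 to 0.0691) or with a fit of only the groups compared (adjusted p = 0.0584) or arrays centred on their medians (adjusted p = 0.124) or a second quantile normalization (adjusted p = 0.0877).

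Cd3e, the epsilon chain that every T cell receptor needs, was not called in any comparison. Its signals were 7.75, 7.60, 7.34, 7.59 and 7.23 without ventilation, 7.21, 7.17, 7.35, 7.33 and 7.53 at low stretch in normocapnia and 7.57, 7.42, 7.44, 7.42 and 7.11 in hypercapnia. High-stretch arrays lay at 7.17 to 7.68 (median 7.43) in normocapnia and 7.32 to 7.70 (median 7.41) in hypercapnia. The groups overlapped throughout, and the change nearest the threshold was -0.18 (SE 0.10, adjusted p = 0.264) at low stretch in normocapnia. Cd3d (the delta chain), the adaptors Trat1 and Skap1 and the signalling protein gene Themis were not called either. The nearest to it were Skap1 at -0.26 (SE 0.09, adjusted p = 0.0569) and Themis at -0.39 (SE 0.14, adjusted p = 0.0641), both at low stretch in normocapnia.

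Of the 10 coreceptors and costimulatory receptors, 4 were called lower at low stretch in either gas (Cd2, Cd8a, Cd8b1 and Cd27), beside 5.17% and 7.02% of all genes, and 1 at high stretch in either gas (Cd2), beside 18.9% and 17.6%. Cd2 had the largest change of the T cell genes against non-ventilated lungs. Its signals were 9.05, 8.76, 9.18, 8.87 and 9.13 without ventilation, 8.07, 8.05, 8.29, 8.23 and 8.66 at low stretch in normocapnia and 8.16, 8.43, 7.96, 8.72 and 8.45 in hypercapnia. At high stretch the arrays ran from 8.43 to 8.96 (median 8.66) in normocapnia and 8.48 to 8.94 (median 8.73) in hypercapnia. Every low-stretch array lay below every non-ventilated one, and the high-stretch arrays lay between, overlapping both. Cd2 changed by -0.74 (SE 0.12, 1.67-fold lower, adjusted p = 3.94e-05) and -0.65 (SE 0.12, 1.57-fold lower, adjusted p = 0.00015) at low stretch in normocapnia and hypercapnia. The change was -0.36 (SE 0.10, 1.28-fold lower, adjusted p = 0.00553) and -0.29 (SE 0.10, 1.22-fold lower, adjusted p = 0.0265) at high stretch. In high-stretch hypercapnia the Cd2 call did not hold when replicate 1, 3 or 5 of the non-ventilated group was left out (adjusted p 0.0589 to 0.089) or with arrays centred on their medians (adjusted p = 0.0592). In mice Cd2 is also carried by B cells, whose markers moved the same way. How far they account for the Cd2 signal was not tested.

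Cd8a and Cd8b1 encode the alpha and beta chains of the CD8 coreceptor of cytotoxic T cells. Cd8a signals were 7.83, 7.42, 7.45, 7.54 and 7.40 without ventilation, 7.03, 6.91, 6.92, 7.30 and 7.51 at low stretch in normocapnia and 6.91, 7.24, 7.08, 7.41 and 7.04 in hypercapnia. High-stretch values lay at 7.13 to 7.63 (median 7.30) and 7.20 to 7.50 (median 7.34) in normocapnia and hypercapnia. In each low-stretch group 4 of 5 arrays lay below all non-ventilated ones. The Cd8a change was -0.40 (SE 0.10, 1.32-fold lower, adjusted p = 0.0079) and -0.39 (SE 0.10, 1.31-fold lower, adjusted p = 0.00691) at low stretch, and at high stretch it was -0.22 (SE 0.09, adjusted p = 0.0508) and -0.19 (SE 0.09, adjusted p = 0.0901), neither called. Both Cd8a calls at low stretch were lost in a fit of only the groups compared (adjusted p = 0.0856 and 0.0536).

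Cd8b1 followed the same order of groups. Signals were 6.95, 6.81, 6.79, 6.99 and 7.18 without ventilation, 6.48, 6.34, 6.38, 6.58 and 6.96 at low stretch in normocapnia and 6.56, 6.45, 6.58, 6.95 and 6.56 in hypercapnia. High-stretch arrays spanned 6.41 to 6.97 (median 6.73) in normocapnia and 6.45 to 6.93 (median 6.81) in hypercapnia. Again 4 of 5 arrays of each low-stretch group lay below the non-ventilated range. Cd8b1 changed by -0.40 (SE 0.11, 1.31-fold lower, adjusted p = 0.00995) and -0.32 (SE 0.11, 1.25-fold lower, adjusted p = 0.0322) at low stretch. The first call was lost with a fit of only the groups compared (adjusted p = 0.0687), and the second when replicate 1, 4 or 5 of the non-ventilated group or 1, 2, 3 or 5 of the low-stretch hypercapnia group was left out (adjusted p 0.0573 to 0.108) or with a fit of only the groups compared (adjusted p = 0.0897) or a fit with array weights (adjusted p = 0.071).

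Cd27, a costimulatory receptor of naive T cells and of a natural killer subset, had signals of 6.55, 6.48, 6.25, 6.23 and 6.20 without ventilation. At low stretch they were 6.17, 5.88, 6.16, 5.91 and 6.15 in normocapnia and 6.05, 6.12, 6.04, 6.23 and 5.99 in hypercapnia, and at high stretch 6.11 to 6.50 (median 6.19) and 5.92 to 6.44 (median 6.19). All low-stretch normocapnia arrays lay below all non-ventilated ones, by a narrow gap. The Cd27 changes were -0.29 (SE 0.09, 1.22-fold lower, adjusted p = 0.0293) and -0.26 (SE 0.09, 1.2-fold lower, adjusted p = 0.0474). The call in normocapnia was lost when replicate 1 or 2 of the non-ventilated group or 2 or 4 of the low-stretch normocapnia group was left out (adjusted p 0.0863 to 0.109) or with a fit of only the groups compared (adjusted p = 0.0924) or a second quantile normalization (adjusted p = 0.0668). That in hypercapnia stood close to the threshold and was lost in 16 of the 35 fits that left out 1 array, when replicate 1 or 2 of the non-ventilated group, 1, 2, 3 or 5 of the low-stretch hypercapnia group, 4, 5, 6, 8, 9 or 10 of the high-stretch normocapnia group or 3, 4, 5 or 9 of the high-stretch hypercapnia group was left out (adjusted p 0.0506 to 0.16) or with a fit of only the groups compared (adjusted p = 0.101) or a trended and robust variance (adjusted p = 0.0556) or arrays centred on their medians (adjusted p = 0.0532) or a second quantile normalization (adjusted p = 0.0718).

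Cd4, the coreceptor of helper T cells, was not called. Its signals were 6.75, 6.27, 6.45, 6.57 and 6.47 without ventilation, 6.38, 6.26, 6.49, 6.51 and 6.74 at low stretch in normocapnia and 6.51, 6.36, 6.31, 6.70 and 6.58 in hypercapnia. At high stretch they lay at 6.28 to 6.66 (median 6.39) in normocapnia and 6.28 to 6.92 (median 6.66) in hypercapnia. Groups overlapped in each comparison. The change nearest the threshold was that with CO2 at high stretch, 0.20 (SE 0.07, adjusted p = 0.112). Cd5, Cd6 and Cd28, receptors that tune the T cell signal, were not called in any comparison either.

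**Figure D2:**
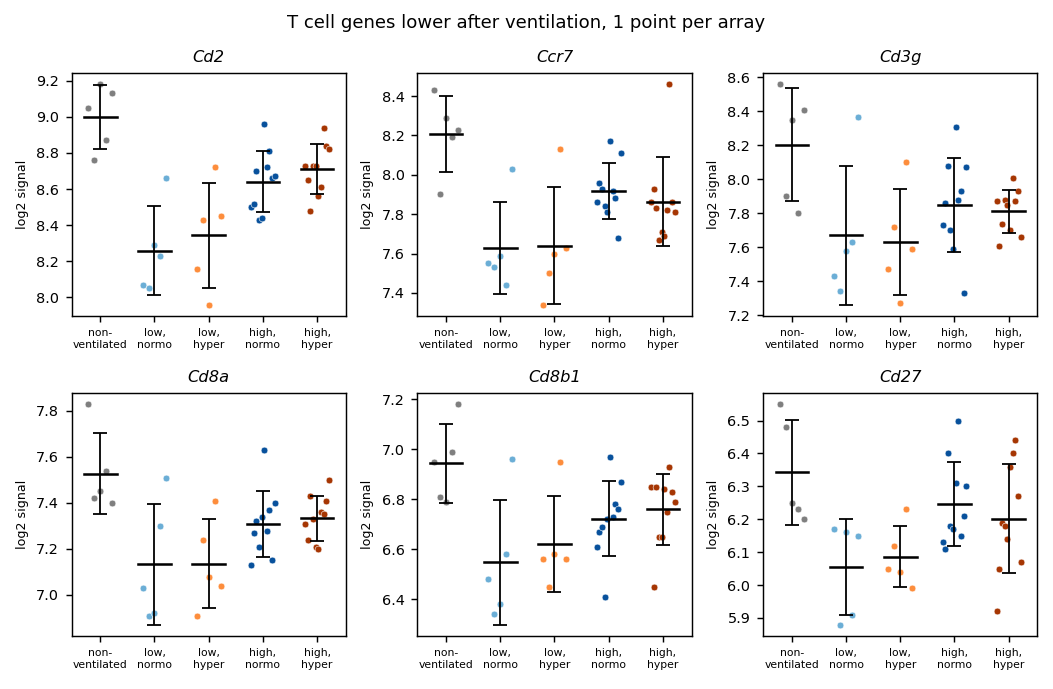
Log2 signal (y axis) of 6 T cell genes in the 5 groups (x axis, stretch and CO2), 1 point per array, with the mean as a bar and the SD as whiskers. For Cd2 the low-stretch arrays, at 7.96 to 8.72, lie below all non-ventilated arrays, at 8.76 to 9.18, and the means of the high-stretch groups lie between.

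Icos and Ctla4, receptors that T cells raise on activation and that regulatory T cells carry at rest, went the other way. Icos signals were 6.84, 6.46, 6.61, 6.30 and 6.67 without ventilation, 6.41, 6.54, 6.73, 6.15 and 7.07 at low stretch in normocapnia and 7.10, 6.81, 6.84, 7.30 and 6.91 in hypercapnia. High-stretch arrays ran from 6.59 to 7.13 (median 6.81) in normocapnia and 6.87 to 7.54 (median 7.02) in hypercapnia. The hypercapnic groups were the higher ones, and in high-stretch hypercapnia all 10 arrays lay above all non-ventilated ones. Icos changed by 0.49 (SE 0.12, 1.4-fold higher, adjusted p = 0.00112) in high-stretch hypercapnia and by 0.41 (SE 0.14, 1.33-fold higher, adjusted p = 0.0328) in low-stretch hypercapnia. The latter call was lost when replicate 2 or 4 of the non-ventilated group or 1 or 4 of the low-stretch hypercapnia group was left out (adjusted p 0.0763 to 0.116) or with a fit of only the groups compared (adjusted p = 0.0583) or a fit with array weights (adjusted p = 0.131). Set against normocapnia at the same stretch, Icos was not called, at 0.41 (SE 0.14, adjusted p = 0.247) at low stretch and 0.24 (SE 0.10, adjusted p = 0.16) at high stretch.

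Ctla4, an inhibitory receptor that competes with Cd28 for its ligands, was called in 1 comparison. Signals were 6.58, 6.08, 6.47, 6.39 and 6.17 without ventilation, 6.38, 6.55, 6.41, 6.60 and 6.53 at low stretch in normocapnia and 6.93, 6.50, 6.19, 6.91 and 6.38 in hypercapnia. At high stretch they ran from 6.37 to 6.83 (median 6.60) in normocapnia and 6.53 to 7.75 (median 6.73) in hypercapnia. In the last group 9 of 10 arrays lay above the non-ventilated range, and replicates 8 and 10, at 7.75 and 7.24, stood above the rest. The Ctla4 change was 0.54 (SE 0.14, 1.45-fold higher, adjusted p = 0.00213) at high stretch in hypercapnia, and 0.44 (adjusted p = 0.00197) without replicate 8. With CO2 at high stretch it was 0.27 (SE 0.11, adjusted p = 0.176), not called.

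Of the 6 measured genes of homing, survival and T cell fate, Ccr7 was called lower in every ventilated group. Its signals were 8.43, 7.90, 8.29, 8.19 and 8.23 without ventilation, 7.55, 7.53, 7.59, 7.44 and 8.03 at low stretch in normocapnia and 7.34, 7.50, 7.60, 8.13 and 7.63 in hypercapnia. High-stretch arrays lay at 7.68 to 8.17 (median 7.90) in normocapnia and 7.67 to 8.46 (median 7.82) in hypercapnia. At low stretch 4 of 5 arrays of each group lay below all non-ventilated ones, and 1 array of each lay within their range. Ccr7 changed by -0.59 (SE 0.13, 1.5-fold lower, adjusted p = 0.00187) and -0.57 (SE 0.13, 1.48-fold lower, adjusted p = 0.00192) at low stretch. At high stretch the change was -0.30 (SE 0.11, 1.23-fold lower, adjusted p = 0.036) in normocapnia and -0.35 (SE 0.11, 1.27-fold lower, adjusted p = 0.0143) in hypercapnia. The high-stretch normocapnia call was lost when replicate 1, 3, 4 or 5 of the non-ventilated group or 4, 5 or 9 of the high-stretch normocapnia group was left out (adjusted p 0.0503 to 0.127) or with arrays centred on their medians (adjusted p = 0.0888), and that in high-stretch hypercapnia when replicate 1 of the non-ventilated group was left out (adjusted p = 0.0626). Ccr7 is also carried by B cells and mature dendritic cells. Of 12 dendritic cell markers, 4 and 1 were called lower at low stretch, beside 5.17% and 7.02% of all genes. At high stretch 0 and 1 were lower, beside 18.9% and 17.6%. Called higher were 0 and 0 at low stretch, beside 6.63% and 7.99%, and 2 and 1 at high stretch, beside 17.4% and 16.3%. Their part in the Ccr7 signal was not tested.

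Ccr8, a chemokine receptor of type 2 helper and regulatory T cells, was called higher in 3 ventilated groups. Its signals were 5.73, 5.54, 5.70, 5.65 and 5.62 without ventilation, 5.37, 5.65, 5.22, 5.78 and 5.46 at low stretch in normocapnia and 6.08, 6.03, 6.17, 5.87 and 6.49 in hypercapnia. High-stretch arrays ran from 5.64 to 6.38 (median 6.01) in normocapnia and 5.79 to 6.32 (median 6.14) in hypercapnia. All of these Ccr8 signals lay below the array medians of 6.96 to 7.05. All arrays of both hypercapnic groups lay above all non-ventilated ones, while low-stretch normocapnia lay around or below them. Ccr8 changed by 0.48 (SE 0.12, 1.4-fold higher, adjusted p = 0.00545) in low-stretch hypercapnia, 0.45 (SE 0.11, 1.37-fold higher, adjusted p = 0.000845) in high-stretch hypercapnia and 0.31 (SE 0.11, 1.24-fold higher, adjusted p = 0.0208) in high-stretch normocapnia. In low-stretch normocapnia it was -0.15 (SE 0.12, adjusted p = 0.533). The high-stretch normocapnia call was lost when replicate 2 of the non-ventilated group was left out (adjusted p = 0.0622).

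Il7r encodes the interleukin-7 receptor chain on which naive and memory T cells and innate lymphoid cells depend. Its signals were 8.86, 8.67, 8.69, 9.09 and 8.63 without ventilation, 8.99, 8.87, 8.85, 9.08 and 9.73 at low stretch in normocapnia and 8.93, 8.84, 8.74, 9.46 and 9.04 in hypercapnia. At high stretch they lay at 9.04 to 9.60 (median 9.19) in normocapnia and 8.99 to 9.78 (median 9.16) in hypercapnia. Above the non-ventilated range lay 9 of 10 high-stretch normocapnia arrays and 7 of 10 hypercapnia arrays. Il7r changed by 0.45 (SE 0.13, 1.37-fold higher, adjusted p = 0.0049) and 0.43 (SE 0.13, 1.35-fold higher, adjusted p = 0.00881) at high stretch, while 0.31 (SE 0.15, adjusted p = 0.193) and 0.21 (SE 0.15, adjusted p = 0.415) at low stretch missed the threshold. Il7r thus rose at high stretch where Ccr7 fell.

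Foxp3, the factor that defines regulatory T cells, was not called. Signals were 6.83, 6.50, 6.56, 6.82 and 6.38 without ventilation, 6.62, 6.63, 6.68, 6.53 and 6.54 at low stretch in normocapnia and 6.79, 6.46, 6.72, 6.61 and 6.37 in hypercapnia. High-stretch arrays lay at 6.29 to 6.83 (median 6.59) and 6.18 to 6.82 (median 6.56). The Foxp3 changes against non-ventilated lungs were -0.02, -0.03, -0.05 and -0.07 in the 4 groups, each smaller than its SE of 0.09 to 0.10. Lef1 and Bcl11b, factors of naive and developing T cells, were not called, with smallest adjusted p of 0.0932 and 0.1.

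**Figure D3:**
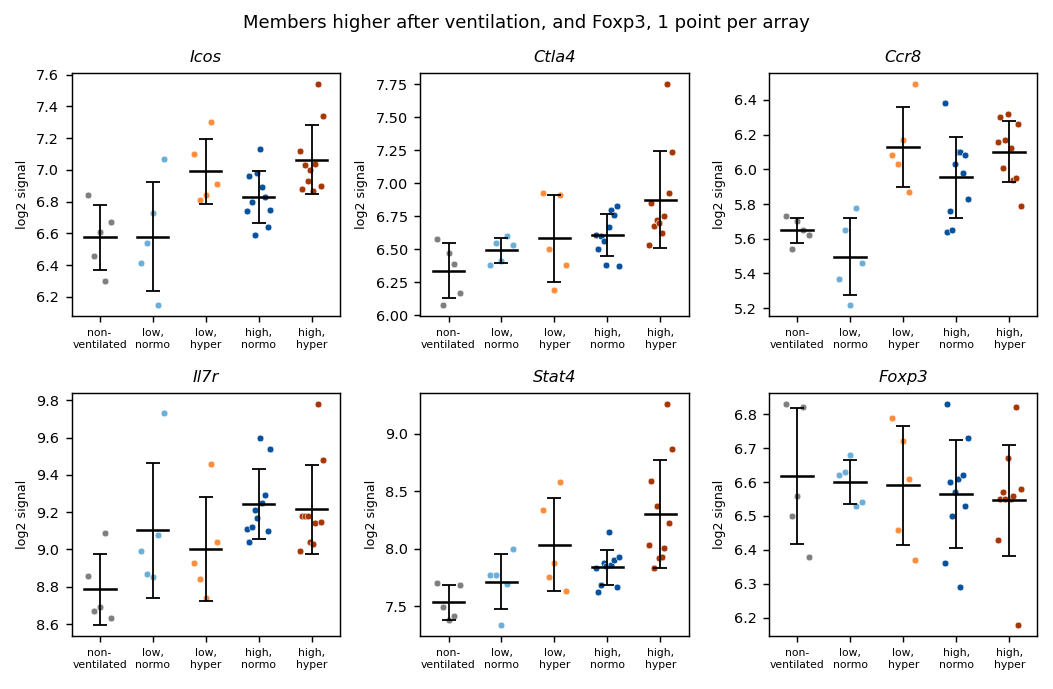
Log2 signal (y axis) of Icos, Ctla4, Ccr8, Il7r, Stat4 and Foxp3 in the 5 groups (x axis, stretch and CO2), 1 point per array, with the mean as a bar and the SD as whiskers. Ccr8 is at 5.87 to 6.49 in low-stretch hypercapnia and at 5.22 to 5.78 in low-stretch normocapnia, and 2 arrays of high-stretch hypercapnia, at 9.26 and 8.87, lead Stat4.

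Of the 13 natural killer and cytotoxic genes, 1 was called lower at low stretch in normocapnia, 4 at low stretch in hypercapnia, 2 at high stretch in normocapnia and 4 at high stretch in hypercapnia, beside 5.17%, 7.02%, 18.9% and 17.6% of all genes. Stat4 was the 1 called higher, at high stretch in hypercapnia, where 16.3% of all genes were. Ncr1 was called in all of these. Its signals were 6.92, 7.20, 7.15, 6.99 and 7.01 without ventilation, 6.59, 6.71, 6.17, 6.07 and 6.42 at low stretch in normocapnia and 5.67, 5.53, 5.98, 6.20 and 5.20 in hypercapnia. High-stretch arrays ran from 5.66 to 7.03 (median 6.42) in normocapnia and 5.39 to 6.08 (median 5.66) in hypercapnia. The group means fell into 3 levels: non-ventilated at the top, the normocapnic groups below, and the hypercapnic groups lowest. At either stretch the arrays of the normocapnic and hypercapnic groups overlapped. Only the high-stretch normocapnia group reached into the non-ventilated range, with replicates 6 and 8 at 7.00 and 7.03. Ncr1 changed by -1.34 (SE 0.20, 2.53-fold lower, adjusted p = 1.01e-05) in low-stretch hypercapnia and by -1.34 (SE 0.17, 2.53-fold lower, adjusted p = 1.8e-07) in high-stretch hypercapnia. In normocapnia it changed by -0.66 (SE 0.20, 1.58-fold lower, adjusted p = 0.0258) at low and -0.61 (SE 0.17, 1.52-fold lower, adjusted p = 0.00543) at high stretch. The low-stretch normocapnia call was lost when replicate 2 or 3 of the non-ventilated group or 3 or 4 of the low-stretch normocapnia group was left out (adjusted p 0.0508 to 0.0782).

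Klrb1c, a lectin-like receptor used to define natural killer cells in C57BL/6 mice, was called lower in both hypercapnic groups. Its signals were 6.92, 7.03, 6.79, 7.01 and 7.16 without ventilation, 7.07, 6.85, 6.83, 6.75 and 7.10 at low stretch in normocapnia and 6.62, 6.37, 6.43, 6.78 and 6.39 in hypercapnia. At high stretch they ran from 6.34 to 7.42 (median 6.77) in normocapnia and 6.38 to 6.79 (median 6.65) in hypercapnia. All low-stretch hypercapnia arrays and 9 of 10 high-stretch hypercapnia arrays lay below all non-ventilated ones. Klrb1c changed by -0.46 (SE 0.15, 1.38-fold lower, adjusted p = 0.0274) at low and -0.37 (SE 0.13, 1.3-fold lower, adjusted p = 0.021) at high stretch. In normocapnia the change was -0.06 (SE 0.15, adjusted p = 0.879) at low and -0.09 (SE 0.13, adjusted p = 0.639) at high stretch. The difference between the gases itself was not called, at -0.40 (SE 0.15, adjusted p = 0.331) and -0.28 (SE 0.10, adjusted p = 0.114) at low and high stretch. At low stretch the Klrb1c call was lost when replicate 2 or 5 of the non-ventilated group or 2, 3 or 5 of the low-stretch hypercapnia group was left out (adjusted p 0.0545 to 0.0715) or with a fit with array weights (adjusted p = 0.0834), and at high stretch when replicate 5 of the non-ventilated group was left out (adjusted p = 0.0638).

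Klrg1, an inhibitory receptor of mature natural killer and effector T cells, had signals of 6.11, 6.13, 6.30, 6.35 and 6.27 without ventilation. At low stretch they were 6.02, 5.53, 5.90, 5.81 and 6.03 in normocapnia and 5.94, 5.91, 5.89, 5.80 and 5.31 in hypercapnia, and at high stretch 5.56 to 6.46 (median 5.89) and 5.34 to 6.38 (median 5.85). All 10 low-stretch arrays lay below all non-ventilated ones. The Klrg1 change was called in low-stretch hypercapnia, at -0.46 (SE 0.15, 1.38-fold lower, adjusted p = 0.0264), and in high-stretch hypercapnia, at -0.39 (SE 0.13, 1.31-fold lower, adjusted p = 0.0137). In normocapnia it missed the threshold, at -0.37 (SE 0.15, adjusted p = 0.0947) at low and -0.31 (SE 0.13, adjusted p = 0.0501) at high stretch. The first call was lost when replicate 3 or 4 of the non-ventilated group or 5 of the low-stretch hypercapnia group was left out (adjusted p 0.0549 to 0.107) or with a fit with array weights (adjusted p = 0.101), and the second with a second quantile normalization (adjusted p = 0.0514) or a fit with array weights (adjusted p = 0.0633).

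Nkg7, a granule membrane protein of cytotoxic lymphocytes, had signals of 8.33, 8.27, 8.15, 8.30 and 8.25 without ventilation. They were 8.03, 7.95, 7.79, 7.53 and 7.82 at low stretch in normocapnia and 7.86, 7.45, 7.87, 8.06 and 7.22 in hypercapnia, and at high stretch 7.28 to 8.38 (median 7.80) and 7.50 to 8.20 (median 7.75). Every low-stretch array lay below every non-ventilated one, and the high-stretch normocapnia group spread widely, with replicates 6, 7 and 8 at 8.18, 8.38 and 8.28. Nkg7 changed by -0.57 (SE 0.16, 1.48-fold lower, adjusted p = 0.0123), -0.39 (SE 0.14, 1.31-fold lower, adjusted p = 0.0254) and -0.47 (SE 0.14, 1.38-fold lower, adjusted p = 0.00826) in low-stretch hypercapnia, high-stretch normocapnia and high-stretch hypercapnia. At low stretch in normocapnia it was -0.44 (SE 0.16, adjusted p = 0.0735). The low-stretch hypercapnia call was lost when replicate 5 of the low-stretch hypercapnia group was left out (adjusted p = 0.0535), and that in high-stretch normocapnia when replicate 1 or 4 of the non-ventilated group or 4 of the high-stretch normocapnia group was left out (adjusted p 0.0505 to 0.0577) or with arrays centred on their medians (adjusted p = 0.0503) or a fit with array weights (adjusted p = 0.0585).

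Stat4, which carries the interleukin-12 signal in natural killer and type 1 helper cells, rose in high-stretch hypercapnia. Its signals were 7.70, 7.49, 7.38, 7.41 and 7.68 without ventilation, 7.77, 7.77, 7.34, 7.69 and 8.00 at low stretch in normocapnia and 8.34, 7.75, 7.88, 8.58 and 7.63 in hypercapnia. High-stretch arrays ran from 7.62 to 8.15 (median 7.86) in normocapnia and 7.83 to 9.26 (median 8.13) in hypercapnia. All 10 high-stretch hypercapnia arrays lay above all non-ventilated ones, with replicates 8 and 10 the highest. Without replicate 8 the change was 0.67 (adjusted p = 0.000441). Over all arrays the Stat4 change was 0.77 (SE 0.17, 1.71-fold higher, adjusted p = 0.00042) in high-stretch hypercapnia. In low-stretch hypercapnia it was 0.50 (SE 0.19, adjusted p = 0.0787), not called.

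The granzyme and perforin genes were not called in any comparison. Gzma, a granzyme, changed by -0.36, -0.55, -0.52 and -0.48 in the 4 ventilated groups, with a smallest adjusted p of 0.0599. Gzmb, another granzyme, changed by 0.37, 0.20, 0.13 and 0.20 with a smallest adjusted p of 0.61, and its arrays within groups had an SD of 0.591, larger than that of 99.5% of all genes. Prf1 (perforin), Ccl5 (a chemokine of cytotoxic cells), Klrk1 and Il2rb (an activating and a cytokine receptor) and Eomes and Tbx21 (the T-box factors of the lineage) were not called either. Over all 20 members never called, changes against non-ventilated lungs ran from -0.39 to 0.37 and from -0.55 to 0.20 at low stretch in normocapnia and hypercapnia. At high stretch they ran from -0.52 to 0.13 and from -0.48 to 0.20.

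**Figure D4:**
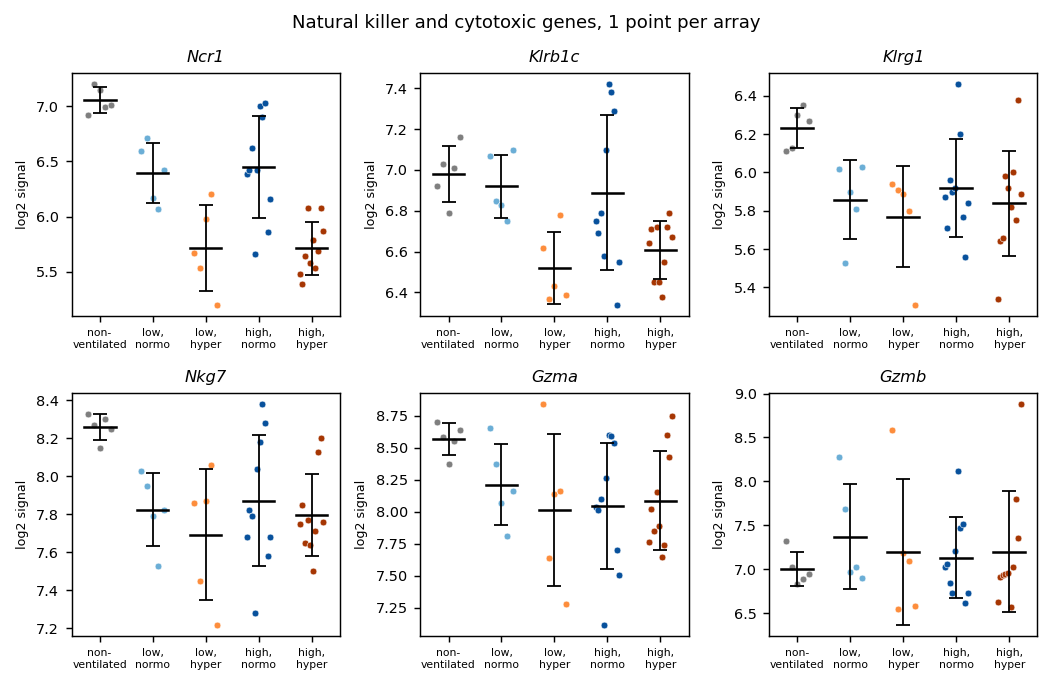
Log2 signal (y axis) of 6 natural killer and cytotoxic genes in the 5 groups (x axis, stretch and CO2), 1 point per array, with the mean as a bar and the SD as whiskers. Ncr1 has means of 5.71 in both hypercapnic groups, 6.39 and 6.45 in the normocapnic ones and 7.05 without ventilation, while Gzma and Gzmb spread widely within groups.

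The effect of CO2 was read by setting hypercapnia against normocapnia at the same stretch. At low stretch 1 member was called higher and 0 lower, where 0.0401% of all genes were called higher and 0.0752% lower (0.115% in all). That gene was Ccr8, at 0.63 (SE 0.12, 1.55-fold higher, adjusted p = 0.0299), with no overlap between the 5 and 5 arrays. The Ccr8 call was lost when replicate 1, 3 or 5 of the low-stretch normocapnia group or 1, 3 or 5 of the low-stretch hypercapnia group was left out (adjusted p 0.0523 to 0.108) or with a fit of only the groups compared (adjusted p = 0.271). At high stretch 1 member was called higher and 1 lower, against 2.49% and 3.07% of all genes (5.56% in all). Ncr1 fell, at -0.73 (SE 0.14, 1.66-fold lower, adjusted p = 0.00124), and 5 of 10 hypercapnic arrays lay below all normocapnic ones. It was called in every fit that left out 1 array, with an adjusted p of at most 0.00362. At low stretch the Ncr1 change was of like size, -0.68 (SE 0.20, adjusted p = 0.183), but was not called among 19938 genes. Stat4 rose at high stretch, at 0.47 (SE 0.14, 1.38-fold higher, adjusted p = 0.0372), a call lost when replicate 1, 2, 3, 5, 7 or 9 of the high-stretch normocapnia group or 2, 4, 8 or 10 of the high-stretch hypercapnia group was left out (adjusted p 0.0527 to 0.0751) or with a fit of only the groups compared (adjusted p = 0.0558) or a fit with array weights (adjusted p = 0.0632).

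Whether CO2 acted differently at the 2 stretches was tested by the interaction. limma called 0 members and 0 of all genes (0%), with 1 member and 893 genes at an unadjusted p under 0.05. The 1 member was Ccr8, whose CO2 effect at high stretch minus that at low stretch was -0.48 (SE 0.15, unadjusted p = 0.00273, adjusted p = 0.997). For Ncr1 the interaction was -0.05 (SE 0.25, adjusted p = 0.997). Over all members the median change with CO2 was 0.03 at low and 0.02 at high stretch, beside 0.01 and -0.01 over all genes.

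High against low stretch raised few members. In normocapnia 2 were called higher and 0 lower, where 8.72% and 9.56% of all genes were (18.3% in all), and in hypercapnia 1 was higher and 0 lower, against 5.43% and 4.69% (10.1%). With arrays centred on their medians the counts were 5 higher in normocapnia and 1 in hypercapnia, while the split of all genes moved from 1739 higher and 1907 lower to 2202 and 1440, and from 1082 and 935 to 1458 and 716. Cd2 was higher at high stretch, by 0.38 (SE 0.10, 1.3-fold higher, adjusted p = 0.00801) in normocapnia and 0.36 (SE 0.10, 1.29-fold higher, adjusted p = 0.0188) in hypercapnia. The hypercapnia call of Cd2 was lost without low-stretch hypercapnia replicate 1 (adjusted p = 0.0624) or 3 (adjusted p = 0.122). Ccr8 was higher in normocapnia by 0.46 (SE 0.11, 1.37-fold higher, adjusted p = 0.00197). Without low-stretch normocapnia replicate 5, the highest of its group in 16 of 23 T cell genes, 9 members were called higher with stretch in normocapnia, and the Cd2 change was 0.48 (adjusted p = 0.00106). Leaving out an array picked for high values favours calls in this direction. Of the 14 B cell markers, 8 and 7 were called higher at high stretch in normocapnia and hypercapnia, and their part in the Cd2 change was not tested. The median change of the members was 0.09 in both gases, beside -0.02 and -0.03 over all genes.

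Genes around these pathways were followed as wider lists. Their counts are given for low-stretch normocapnia and hypercapnia, then high-stretch normocapnia and hypercapnia, where 6.63%, 7.99%, 17.4% and 16.3% of all genes were called higher and 5.17%, 7.02%, 18.9% and 17.6% lower. Of 23 other genes of T cell receptor signalling, 5, 5, 7 and 9 were called higher and 3, 2, 5 and 3 lower in the 4 ventilated groups. The counts of higher genes lay above the share of all genes in each group. Those of lower genes at high stretch lay near or below it. Among the largest rises were those of Vav1 (0.76, 0.85, 0.96 and 0.94) and Lcp2 (0.77, 0.62, 0.91 and 0.78), an exchange factor and an adaptor that neutrophils and macrophages carry as well. Ptpn22, a phosphatase that restrains the receptor signal in lymphocytes, rose by 0.34 with CO2 at high stretch (SE 0.09, adjusted p = 0.0158). Against non-ventilated lungs it rose by 0.57 in low-stretch hypercapnia and by 0.57 and 0.91 at high stretch. Its mean was 7.36 without ventilation and above that in every ventilated group, low-stretch normocapnia included. It was 7.82 and 7.92 at low stretch (normocapnia, hypercapnia) and 7.93 and 8.27 at high stretch. Rasgrp1, which links the receptor to Ras in T cells, fell by 0.77 at low stretch in hypercapnia (SE 0.11, adjusted p = 4.38e-06) and by 0.47 in normocapnia (SE 0.11, adjusted p = 0.00346). At high stretch its means, 7.71 in normocapnia and 7.47 in hypercapnia, also lay below the non-ventilated mean of 8.00.

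Among 17 other genes of T cell traffic and quiescence, 0, 1, 2 and 4 were called higher and 6, 7, 7 and 5 lower in the 4 ventilated groups, beside 18.9% and 17.6% of all genes lower and 17.4% and 16.3% higher at high stretch. Klf2, a factor that keeps naive T cells quiescent and in circulation and that endothelium expresses as well, changed by -0.89, -1.08, -0.93 and -1.01. S1pr4, a lymphocyte receptor for sphingosine 1-phosphate, changed by -0.51, -0.51, -0.56 and -0.65. Btla, an inhibitory receptor of T and B cells, changed by -0.50 and -0.77 at low stretch and rose by 0.59 and 0.66 from low to high stretch in normocapnia and hypercapnia. The endothelial markers moved too, with 9, 8, 10 and 9 of 14 called lower, and their part in the Klf2 signal was not tested.

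Of 35 other natural killer genes, 4, 5, 5 and 7 were called higher and 1, 6, 6 and 8 lower in the 4 groups, and at high stretch in normocapnia both counts lay below the shares of all genes (17.4% and 18.9%). Among the largest rises were those of Cd244a (1.17, 1.08, 1.24 and 1.23) and Il18rap (1.28, 1.06, 1.26 and 1.20), genes that myeloid cells carry as well. Neutrophil markers rose in the same groups, with a mean level of 7.12 to 8.79 without ventilation and 9.12 to 10.61 over the ventilated arrays. Of 15 monocyte and macrophage markers, 2, 2, 8 and 9 were called higher and 0 lower, with a mean level of 8.83 to 9.39 without ventilation and 9.15 to 9.95 over the ventilated arrays. The part of either cell type in these rises was not tested. With CO2 at high stretch 1 of the 35 was called, where 5.56% of all genes were. It was Cx3cr1, a chemokine receptor of mature natural killer cells and monocytes, at -0.46 (SE 0.12, adjusted p = 0.0189). Of the 15 monocyte and macrophage markers 0 were called with CO2, and their part in the Cx3cr1 change was not tested.

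Of 24 other genes of helper T cells and innate lymphoid cells, 1, 2, 6 and 3 were called higher and 2, 2, 3 and 4 lower. The lower counts at high stretch lay below the shares of all genes (18.9% and 17.6%). The higher counts there lay above the share in normocapnia (17.4%) and below it in hypercapnia (16.3%). Tigit, an inhibitory receptor of T and natural killer cells, rose in all 4 groups, by 0.33, 0.46, 0.49 and 0.61. Pdcd1, the PD-1 receptor, rose by 0.46 (SE 0.08, adjusted p = 0.000118) at low stretch and by 0.45 (SE 0.07, adjusted p = 5.72e-06) at high stretch in hypercapnia. Its group mean was 6.19 without ventilation and above that in every ventilated group. It was 6.30 and 6.65 at low stretch (normocapnia, hypercapnia) and 6.49 and 6.64 at high stretch. Set against normocapnia at the same stretch, Pdcd1 was not called. Gata3, the factor of type 2 helper and innate lymphoid cells, fell by 0.57 in low-stretch normocapnia and by 0.63 and 0.50 at high stretch. Its mean in low-stretch hypercapnia was 7.77, beside 8.05 without ventilation. Cxcr6, a tissue homing receptor, fell with CO2 at high stretch by 0.32 (SE 0.07, adjusted p = 0.00663).

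Among 26 ligands and cytokines that these cells receive or make, 0, 1, 9 and 7 were called higher and 3, 4, 2 and 3 lower. At high stretch the higher counts lay above the shares of all genes (17.4% and 16.3%) and the lower counts below (18.9% and 17.6%). Ccl3, a chemokine, rose by 2.31 and 1.90 at high stretch in normocapnia and hypercapnia. Il33, an alarmin that acts on type 2 lymphoid cells, changed by -0.87 and -0.74 at low stretch and was higher at high than at low stretch by 1.33 and 0.93. Cd80, a ligand of Cd28 and Ctla4 on presenting cells, rose by 0.74 in low-stretch hypercapnia and by 0.93 and 1.01 at high stretch. Its mean in low-stretch normocapnia was 7.05, beside 6.50 without ventilation.

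Members of the same set tended to vary together between animals of a group, natural killer and cytotoxic genes most. How far their correlations exceeded those of other genes was not tested. The median SD of the members within groups was 0.198, beside 0.149 over all genes. Gzmb (0.591), Gzma (0.423), Ncr1 (0.337) and Stat4 (0.326) varied most and Zap70 (0.105) least. Taking each array's deviation from its group mean over the 35 arrays, which share an RNA preparation and an array for all genes, the 78 pairs of natural killer and cytotoxic genes had a median Pearson's r of 0.61 (Spearman's rho 0.61). The 253 pairs of T cell genes had a median of 0.42 (0.34), and the 299 pairs between both sets one of 0.21 (0.18). The closest pairs were Gzma and Ccl5 (0.88, rho 0.86), Nkg7 and Ccl5 (0.87, rho 0.83) and Gzma and Gzmb (0.85, rho 0.91), and among T cell genes Themis and Cd8a (0.80, rho 0.70). Within high-stretch normocapnia, replicates 6, 7 and 8 led Klrb1c (7.42, 7.38 and 7.29), Gzma (8.60, 8.59 and 8.54) and Ncr1 (7.00, 6.90 and 7.03). In high-stretch hypercapnia, replicates 8 and 10 led Stat4 (9.26 and 8.87), Ctla4 (7.75 and 7.24), Icos (7.54 and 7.34) and Gzmb (7.80 and 8.88). Such shared deviations are descriptions, and sample quality or cell content behind them was not tested.

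**Figure D5:**
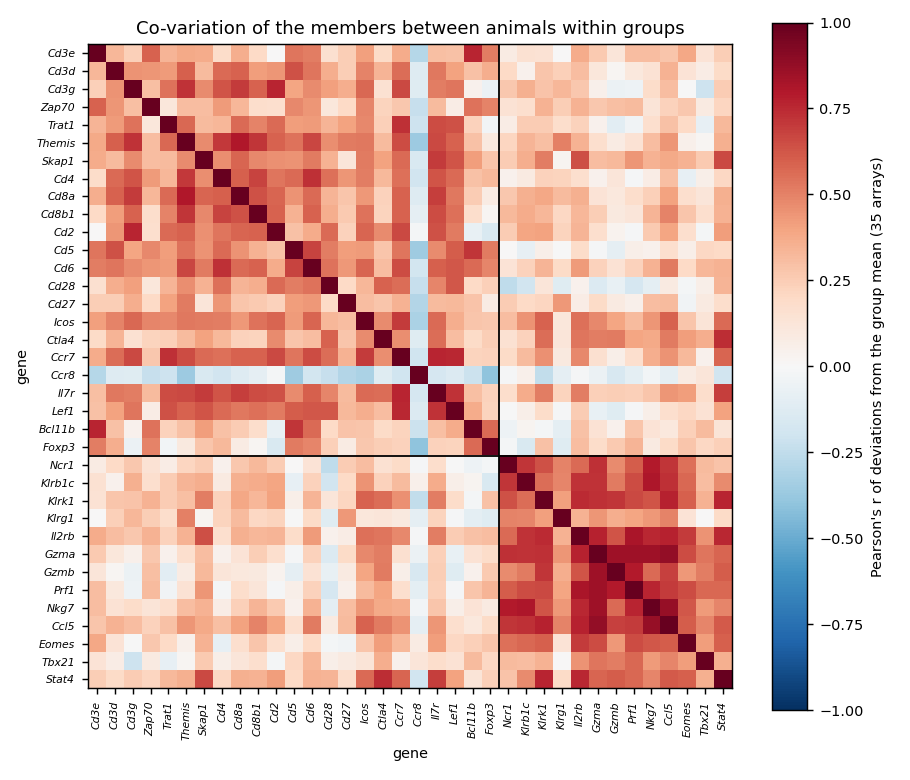
Pearson's r (colour, from -1 to 1) between deviations from the group mean over 35 arrays, for each pair of the 36 members (both axes, ordered by role); black lines part the T cell genes from the natural killer and cytotoxic genes. The lower right block, with a median of 0.61, is the warmest, and Ccr8 forms a pale to blue line across the T cell block.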

How the data were processed

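Whole-lung RNA of 35 mice (5 non-ventilated, 5 in each low-stretch group and 10 in each high-stretch group) was measured on Affymetrix arrays. The deposited values are log2 signals per probe set. RMA, Affymetrix Expression Console and Partek are named in the submitters' processing notes, without versions. Of 35557 probe sets, 21789 had 1 gene symbol, 1621 had several and 12147 were not in the gene table. The probe set with the highest mean stood for each of 19938 genes.

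Group means of all 35 arrays were fitted with limma 3.58.1 in R 4.3.3, and 9 contrasts were tested, two-sided, with Benjamini-Hochberg adjustment over all genes. On simulated arrays with known 2-fold changes and independent noise the fit recovered their direction. Smaller changes, such as most of those given here, were not simulated. Each animal was its own replicate, and the number of arrays limits the precision. Arrays sharing a replicate number did not deviate together (median correlation 0.023 over 55 pairs, beside -0.008 over 420 others), so the numbers were not used as pairs.

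The members and the gene lists were chosen with earlier results of these data known. Values per array are given for members called in at least 1 contrast and for Cd3e, Cd4, Cd8a, Ncr1 and Foxp3, and for the other pathway lists at most the 3 called genes with the largest change per contrast. Alternatives were a fit of only the groups compared, the replicate number as a block, a trended and robust variance, only genes above the median level, the mean of a gene's probe sets, arrays centred on their medians, a second quantile normalization, array weights, and leaving out each array.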

Additional observations from a re-analysis of the deposited data

Results flagged for a closer look

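In 10 of 180 checks of a member in a group (5.56%), 1 array lay far from the rest by Dixon's ratio, which chance does in about 1 of 20 groups. Low-stretch normocapnia replicate 5 was the highest of its group in 16 of 23 T cell genes, and lay this far from the rest in 4 of them: Cd3g at 8.37 (next array 7.63), Ccr7 at 8.03 (next 7.59), Il7r at 9.73 (next 9.08) and Lef1 at 8.33 (next 7.96). High-stretch hypercapnia replicate 8 was the highest of its group in 17 of the 23, and lay this far from the rest in Ccr7, at 8.46 (next 7.93), and in Cd28, at 7.37 (next 7.09). Replicate 10 of that group did so in Gzmb, at 8.88 (next 7.80). In low-stretch hypercapnia, Cd8b1 was highest in replicate 4, at 6.95 (next 6.58), and Klrg1 lowest in replicate 5, at 5.31 (next 5.80). Among non-ventilated mice, Tbx21, a T-box factor of type 1 helper and natural killer cells, was lowest in replicate 3, at 6.17 (next 6.54).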

How the results depend on the processing

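Of 44 calls of a member in a comparison, 23 held in every fit that left out 1 array, 23 in all other alternatives that kept the gene, and 18 in every fit, and 0 changed sign. The counts of members called did not stay within 1.5 times the main count in the following cases, whose cause was not tested. A fit of only the groups compared, with fewer arrays, gave 7 in place of 12 for low-stretch hypercapnia, 12 in place of 7 for high-stretch normocapnia, 0 in place of 1 for CO2 at low stretch and 1 in place of 2 for CO2 at high stretch. Only 10 members lay above the median level, and a fit of those genes gave 4, 5 and 6 for low-stretch normocapnia, low-stretch hypercapnia and high-stretch hypercapnia, 0 for CO2 at low stretch and 1 for CO2 at high stretch. Centring gave 4 for high-stretch normocapnia and 5 for stretch in normocapnia, where array weights gave 6. With the replicate number as a block, 12 were called for high-stretch normocapnia, 1 in place of 2 for stretch in normocapnia and 0 in place of 1 for stretch in hypercapnia. The block lost 4 calls: Cd3g at low stretch in normocapnia (adjusted p = 0.0522) and at high stretch in hypercapnia (0.0564), and Cd2 with stretch in normocapnia (0.0845) and hypercapnia (0.153). Leaving out 1 array gave 4 to 9 and 8 to 13 for low-stretch normocapnia and hypercapnia against non-ventilated lungs, and 5 to 12 and 9 to 14 for high stretch. It gave 0 to 1 for CO2 at low stretch (0 without replicate 1, 3 or 5 of either group), 1 to 2 for CO2 at high stretch, 2 to 9 for stretch in normocapnia (9 without low-stretch normocapnia replicate 5) and 0 to 2 for stretch in hypercapnia (0 without low-stretch hypercapnia replicate 1 or 3, 2 without replicate 4). The interaction gave 0 members in every fit.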
